A study of Rattus norvegicus with 12 samples.

Results

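The nuclear-encoded subunits of the oxidative phosphorylation system were examined in the atria of rats with and without an aorto-caval shunt. A gene was a member when its single annotated symbol began with Ndufa, Ndufb, Ndufc, Ndufs or Ndufv and a digit, with Uqcr, with Cox4 to Cox8 or with Atp5, or was Cyc1. This name rule, which used no measured value, found 76 of the 14217 genes with a single-gene probe set on the array, and each gene was represented by its probe set with the highest mean over the 12 arrays. They comprised 33 subunits of complex I, 8 of complex III, 16 of complex IV, 15 of ATP synthase and 4 genes outside the enzymes proper: Ndufa4l2, Atp5if1, Cox7a2l and Cox6c-ps1. The 7 probe sets that name a gene of the pattern together with another gene (among them those for Cox7a2, Atp5mc1, Atp5mc2 and Uqcrb) were not members, and Cox8c was not analysed here.

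Complexes I, III and IV pass electrons from NADH to oxygen along the inner mitochondrial membrane and pump protons outward, and ATP synthase uses the returning protons to make ATP. Most subunits are encoded in the nucleus, and the heart, which lives largely on this pathway, carries them at very high levels. Several complex IV subunits exist as alternative isoforms: striated muscle uses Cox6a2, Cox7a1 and Cox8b where other tissues use Cox6a1, Cox7a2 and Cox8a, and Cox4i2 is an alternative to Cox4i1 best known from lung and from oxygen shortage.

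The tissue came from the atrial appendages of male Sprague-Dawley rats of no stated genetic modification, taken 28 days after a sham operation or after an aorto-caval shunt, which joins the aorta to the vena cava and loads the heart with extra volume. There were 4 groups, sham and shunt for each of the right and the left atrium, with 3 arrays each, and each array was hybridised with RNA from a pool of 2 tissues. Sham animals were operated on but carried no shunt, and animal age was not given. The labels do not say whether a right and a left pool came from the same animals, and their tissue entry names ventricles beside atria.

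The values are log2 intensities after robust multi-array averaging (RMA), so a difference of 1 is a 2-fold difference. Array medians lay between 5.44 and 5.47 and the highest value was 14.43. Of 7 atrial muscle markers, Nppa, Myl7, Myl4 and Sln were among the brightest on all 12 arrays. Kcna5, Kcnj3 and Nr2f2 had means of 5.89, 8.95 and 9.14. The ventricular marker Myl2 had means of 10.94 in right sham and 12.37 in right shunt. On the left its means were 5.26 in sham and 5.99 in shunt. On the second principal component replicate 3 of the left shunt group lay at 26.7 and its 2 fellow arrays at -15.0 and -13.6, and 55 of the 76 members were higher on it than on both other arrays of that group, by a median of 0.08. Tests were limma fits over all 31042 probe sets, with Benjamini-Hochberg adjusted p-values and a threshold of 0.05. A gene is called here when it passed that threshold. With 3 pools a group, p-values rest on the spread between these pools, which limma moves toward a common value drawn from all probe sets. For comparisons of 2 groups the median standard error of the members was 0.067. It was 0.045 when the variance was fitted as a trend with level. In whole tissue, fewer cells of a type and less RNA per cell cannot be told apart.

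The members were bright: their means over the 12 arrays ran from 2.99 to 13.47 with a median of 12.04, while the median probe set lay at 5.46, and 73 of the 76 were above that. Within each complex the highest probe sets belonged to Ndufb9 (13.1), an accessory subunit of complex I, to Uqcr10 (13.0), a small subunit of complex III, to Cox4i1 (13.5), the regulatory subunit IV of complex IV, and to Atp5f1b (13.4), the catalytic beta subunit of ATP synthase. These are probe intensities and give no order of transcript amounts.

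The promoters of the 2 genes called in the shunt comparison are shown beside those of the 2 muscle isoforms that were not, since the muscle isoforms differed in their calls. The 2 uncalled isoforms read near the top of the scale, where a difference can be understated. Each stretch holds the 250 bases before the annotated gene start (RefSeq, assembly GRCr8), read 5′ to 3′ along the gene's strand, with capitals for a match to a searched motif. Cox7a1 lies on the plus strand (chr1:94568966-94569215), Ndufa4l2 on the plus strand (chr7:65241919-65242168), Cox6a2 on the minus strand (chr1:192219717-192219966) and Cox8b on the minus strand (chr1:205408274-205408523).
Cox7a1: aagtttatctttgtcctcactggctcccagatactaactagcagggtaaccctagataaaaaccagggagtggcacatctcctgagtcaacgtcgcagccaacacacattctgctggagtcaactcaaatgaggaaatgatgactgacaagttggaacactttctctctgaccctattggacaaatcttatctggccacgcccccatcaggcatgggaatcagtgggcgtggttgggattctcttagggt
Ndufa4l2: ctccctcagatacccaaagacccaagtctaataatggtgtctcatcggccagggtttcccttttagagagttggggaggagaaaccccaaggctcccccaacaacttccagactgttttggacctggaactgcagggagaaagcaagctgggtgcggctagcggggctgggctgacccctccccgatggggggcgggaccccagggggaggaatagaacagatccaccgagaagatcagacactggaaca
Cox6a2: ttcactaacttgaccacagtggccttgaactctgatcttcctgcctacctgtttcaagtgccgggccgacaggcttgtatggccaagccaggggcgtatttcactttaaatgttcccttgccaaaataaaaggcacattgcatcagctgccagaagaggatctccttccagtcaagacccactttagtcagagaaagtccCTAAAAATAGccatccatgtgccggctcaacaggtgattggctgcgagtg
Cox8b: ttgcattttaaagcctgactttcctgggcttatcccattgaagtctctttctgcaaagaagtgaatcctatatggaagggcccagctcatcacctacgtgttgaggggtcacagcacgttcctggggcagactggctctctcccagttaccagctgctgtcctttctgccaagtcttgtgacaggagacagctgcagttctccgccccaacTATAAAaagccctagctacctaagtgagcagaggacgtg
The capitals mark a MEF2 site that starts 50 bases before the gene start of Cox6a2 and a TATA box that starts 39 bases before that of Cox8b. The Cox7a1 and Ndufa4l2 stretches held none of the 5 motifs searched.

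Of the members, 67 had a promoter in that table, which holds 27457 promoters in all. The motifs were searched on both strands and counted separately, so a base may belong to more than a single motif. The core of the NRF-1 site (GCATGCG), a factor of respiratory genes, was in 8 of the 67 (11.9%) against 3.14% of all promoters. The ETS core (CCGGAAG), which the respiratory factor GABP also reads, was in 17 (25.4%) against 7.74%. The site of the estrogen-related receptors (AAGGTCA) was in 6 (8.96%), 4 of them ATP synthase genes, against 3.77%. The TATA box (TATAAA) was in 8 (11.9%) against 13.1%, and the MEF2 site was in 1 (1.49%) against 3.07%. These are matches of letters and show no binding.

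The first comparison asked which subunits differed after the shunt in the right atrium. Cox7a1, the muscle isoform of complex IV subunit VIIa, and Ndufa4l2, a paralog of Ndufa4 known as a target of hypoxia-inducible factor that lowers complex I activity, rose, and no other member was called. That is 2 of 76 (2.63%), where 2.97% of all 31042 probe sets were called, and 1.9% were called higher, so the share of members called was close to that of the whole array. With 1 probe set per gene, as for the members, 3.97% of the 14217 genes were called. Without adjustment, 6 of the 76 members had p under 0.05, against 19.7% of all probe sets.

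Cox7a1 read 7.62, 7.81 and 7.63 on the right sham arrays and 8.32, 8.27 and 8.68 on the right shunt arrays. Each shunt array was above each sham array. The increase was 0.74 ± 0.12 (SE, n = 3 and 3), or 1.67-fold, with a 95% confidence interval from 0.47 to 1.01 (limma, adjusted p = 0.0114). In the left atrium it read 7.94, 7.79 and 7.92 in sham and 8.41, 8.16 and 8.58 in shunt. Those groups did not overlap either, but the difference of 0.50 ± 0.12 missed the threshold after adjustment (limma, adjusted p = 0.0919), and without left shunt replicate 3 it was 0.40 (limma, adjusted p = 0.138). Averaged over both atria, the shunt effect was 0.62 ± 0.09 (limma, adjusted p = 0.00245). This average counts right and left pools as independent, although the labels do not say whether they are. The effect in the left atrium minus that in the right was -0.24 ± 0.17, with an interval from -0.61 to 0.14 (limma, adjusted p = 0.558). Cox7a1 was thus the member with the largest shunt difference in both atria, and a difference between the atria was not resolved.

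Ndufa4l2 read 6.25, 6.12 and 6.45 in right sham and 6.86, 6.82 and 6.95 in right shunt. The groups were separate, and the increase was 0.60 ± 0.12, or 1.52-fold, with an interval from 0.34 to 0.87 (limma, adjusted p = 0.024). This call was lost when any of right sham replicates 1 and 2 or right shunt replicates 1, 2 and 3 was left out, with adjusted p-values of 0.0709 to 0.0987 and increases of 0.53 to 0.63. In the left atrium it read 7.44, 7.08 and 7.39 in sham and 7.67, 7.26 and 7.44 in shunt. These groups overlapped, with a difference of 0.16 ± 0.12 (limma, adjusted p = 0.626). The left effect minus the right was -0.45 ± 0.17, with an interval from -0.82 to -0.07 before adjustment (limma, adjusted p = 0.279). The order of the 4 groups was right sham, right shunt, left sham and left shunt, the last pair overlapping.

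**Figure D1:**
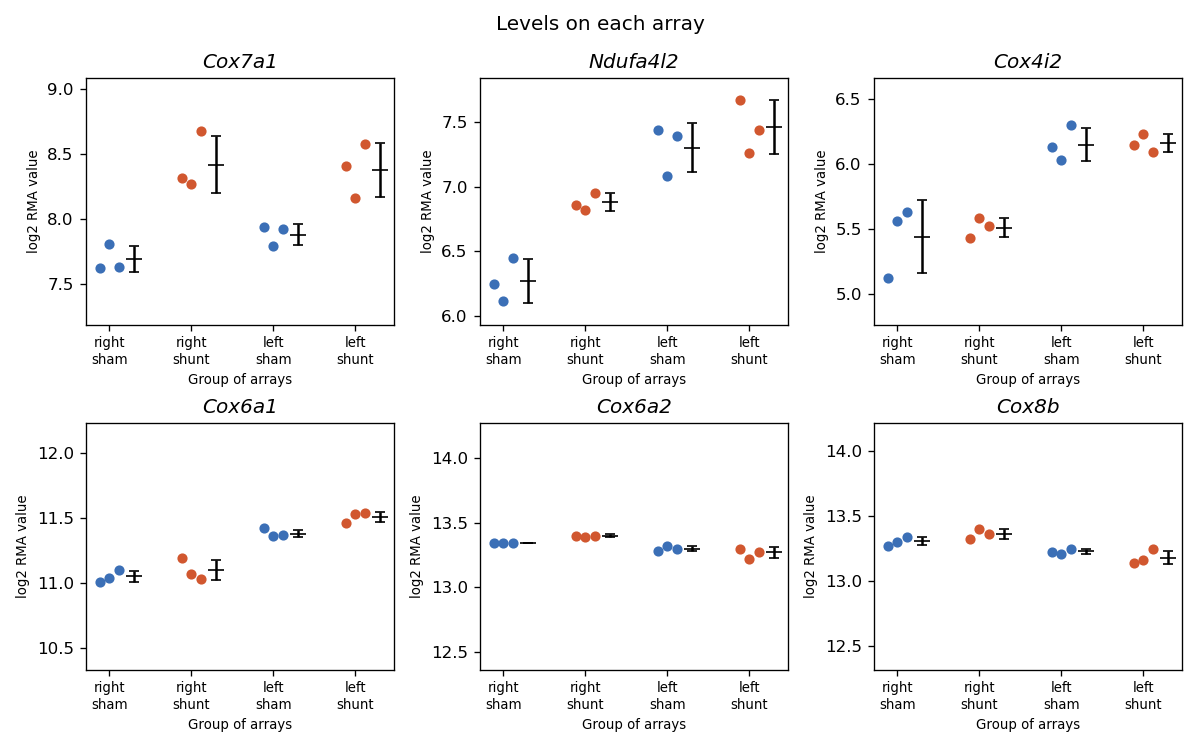
Log2 RMA value of 6 member genes on each array, with the group mean and SD (n = 3) as a bar beside the points; all panels span the same height in log2 units. The shunt points of Cox7a1 lie above its sham points in both atria, Ndufa4l2, Cox4i2 and Cox6a1 were higher in the left atrium, and Cox6a2 and Cox8b stayed between 13.1 and 13.4.

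Levels of other cell types were set beside these differences. Of 7 markers of ventricular muscle, 4 rose in the right atrium with the shunt (Myl2, Myl3, Myh7 and Hey2) and 1 in the left (Myh7). Of all probe sets, 1.9% were called higher in the right atrium, and 0.751% were called in either direction in the left. The right atrial mean of the list was 7.07 to 7.23 on the sham arrays. It was 7.45, 8.26 and 8.21 on shunt replicates 1, 2 and 3. Of 8 macrophage markers, 3 rose in the right atrium (list mean 7.15 to 7.25 in sham, 7.65 to 7.74 in shunt). None was called by limma in the left, where the list mean was 6.84 to 6.97 in sham and 6.7 to 7.29 in shunt. Single markers of other lists were called for the shunt as well. Thy1 (1 of 8 fibroblast markers), Myh1 (1 of 7 skeletal muscle markers) and Prph (neuronal) were higher in both atria. Myh1 had a mean of 11.49 over the 12 arrays, and the other skeletal muscle markers had means from 2.72 (Myh4) to 4.7 (Tnni2). Esam (1 of 7 endothelial markers) was higher in the right, Uchl1 (neuronal) was higher in the left, and Kcna5 (1 of 7 atrial markers) was lower in the right. The median difference of the 8 neuronal markers was -0.1 in the right and 0.5 in the left. No other marker of these lists was called for the shunt in either atrium. None of 5 brown adipocyte markers was called by limma in either atrium (1 in each had an unadjusted p under 0.05), though Ucp1 read 7.56 on left atrium shunt replicate 3 and 4.22 and 4.66 on the others of its group. None of 6 smooth muscle markers was called for the shunt by limma, with 2 in the right and 3 in the left atrium at an unadjusted p under 0.05 (right atrium list mean 7.87 to 8.06 in sham, 7.98 to 8.11 in shunt). The part of these cell types in the rise of Cox7a1 and Ndufa4l2 was not tested.

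The remaining 74 members had right atrial differences between -0.38 and 0.19. For 72 of the 76, counting the called genes, the 95% interval lay within 0.5 of 0 on the log2 scale, that is within 1.41-fold. The median over all members was 0.00, as was that over all probe sets. The groups did not overlap for 21 of the 76 members, 11 higher and 10 lower in shunt, against 28.4% of all probe sets (14.9% higher and 13.5% lower).

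By complex, the 33 complex I subunits lay between -0.12 and 0.11, and the intervals of all 33 were within 0.5 of 0. None was called by limma, and none had an unadjusted p under 0.05. The 6 core subunits that carry the electron path (Ndufs1, Ndufs3, Ndufs7, Ndufs8, Ndufv1 and Ndufv2) lay between -0.08 and 0.09. The 8 complex III subunits lay between -0.16 and 0.13, with Uqcrq, which binds cytochrome b, lowest (-0.16 ± 0.07, limma adjusted p = 0.205). The 15 ATP synthase subunits lay between -0.19 and 0.15. Their extremes were Atp5me, a small subunit of the membrane part (-0.19 ± 0.07, limma adjusted p = 0.148), and Atp5pb, of the peripheral stalk (0.15 ± 0.06, limma adjusted p = 0.233). These 3 genes were called when the variance was fitted as a trend with level.

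Complex IV carried the tissue isoforms, and their probe sets did not move as a set. Cox6a2 read 13.34 on all right sham arrays and 13.40, 13.39 and 13.40 on the right shunt arrays, a difference of 0.05 (limma, adjusted p = 0.669). Cox8b read 13.27, 13.30 and 13.34 in right sham and 13.32, 13.40 and 13.36 in right shunt, also a difference of 0.05 (limma, adjusted p = 0.695). So of the 3 muscle isoforms 1 was called, Cox7a1, with a mean of 8.09 over the 12 arrays. Cox6a2 and Cox8b had means of 13.33 and 13.27, near the top of the scale, where a difference can be understated. Among the isoforms of other tissues, Cox6a1 differed by 0.05, Cox8a by -0.10, Cox4i2 by 0.07 and the dim testis isoform Cox6b2 by 0.19, and none was called. Cox4i1 (-0.02), Cox5b (0.01), Cox6b1 (0.07), Cox7b (-0.04) and Cox7c (0.00) were equally close to 0.

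Among the genes outside the enzymes, Atp5if1, which blocks ATP hydrolysis by ATP synthase, differed by -0.16 in the right atrium (limma, adjusted p = 0.372) and by -0.16 in the left (limma, adjusted p = 0.476). The pseudogene Cox6c-ps1, a dim probe set, differed by -0.38 in the right (limma, adjusted p = 0.118) and by 0.04 in the left. Cox7a2l, which helps join complexes III and IV into supercomplexes, differed by -0.06 and 0.08.

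**Figure D2:**
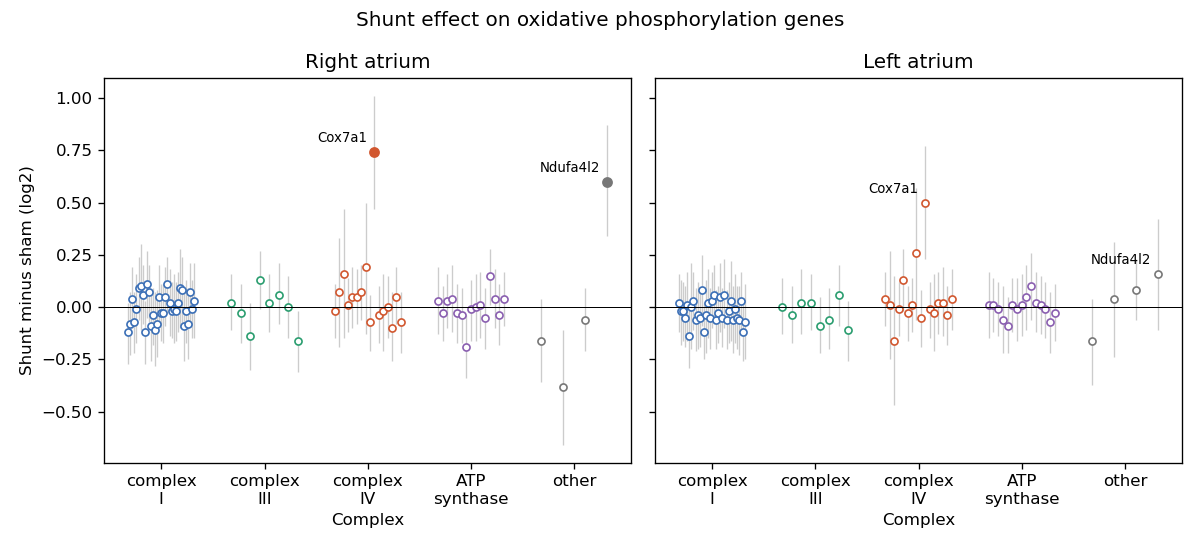
Shunt minus sham difference (log2) of the 76 genes by complex in the right atrium and in the left atrium; lines are 95% confidence intervals of the limma fit and filled points are the called genes. Cox7a1 and Ndufa4l2 are the filled points on the right, at 0.74 and 0.60, while complex I lies between -0.12 and 0.11.

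In the left atrium 0 of the 76 members were called by limma, where 0.751% of all probe sets were, and 1, Cox7a1, had an unadjusted p under 0.05 (13.6% of all probe sets). With a variance trend limma called 1, Cox7a1 (adjusted p = 0.0375). The differences ran from -0.16 to 0.50 with a median of -0.01, and 74 of the 76 intervals were within 0.5 of 0. After Cox7a1, the highest were Cox6b2 (0.26, limma adjusted p = 0.471) and Ndufa4l2, and the lowest were Atp5if1, Cox5a (-0.16) and Ndufa3 (-0.14). The groups did not overlap for 10 of the 76 members, 3 higher and 7 lower, against 16.9% of all probe sets (7.69% higher and 9.21% lower). Averaged over both atria, Cox7a1 and Ndufa4l2 were the called members (2.63%, against 3.86% of all probe sets), Ndufa4l2 at 0.38 ± 0.09 (limma, adjusted p = 0.03). That call of Ndufa4l2 was lost without right sham replicate 1 or 2, right shunt replicate 1, 2 or 3, left sham replicate 2 or 3, or left shunt replicate 1 (values 0.33 to 0.40, limma adjusted p up to 0.0784).

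No member was called for a difference of the shunt effect between the atria (0.0258% of all probe sets were), 3 had an unadjusted p under 0.05 (14.4% of all probe sets), and the lowest adjusted p by limma was 0.279. Over the 76 genes the right and left effects had a Pearson correlation of 0.53 and a Spearman correlation of 0.07. Without Cox7a1 and Ndufa4l2 these were 0.08 and -0.01. The points are genes measured on the same arrays, and the values are descriptions. The mean over the complex I subunits was 11.65 to 11.71 in right sham, 11.67 to 11.70 in right shunt, 11.70 to 11.74 in left sham and 11.67 to 11.76 in left shunt. Sham and shunt arrays overlapped in both atria for complex I and ATP synthase, and the complex III mean was 12.47 to 12.50 in right sham and 12.47 on each right shunt array. The complex IV mean, which holds Cox7a1, was 10.36 to 10.44 in right sham and 10.46 to 10.49 in right shunt, which did not overlap, and 10.53 to 10.59 in left sham and 10.59 to 10.62 in left shunt.

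The second comparison asked how the left atrium differed from the right. In sham, 24 of the 76 members were called (31.6%), where 36.1% of all probe sets and 37.6% of genes with 1 probe set each were. They went both ways: 16 were higher on the left and 8 lower (20.1% and 16.1% of all probe sets), with a median over all members of 0.00. In shunt, 19 members were called (25%, against 37.7% of all probe sets and 40.5% of genes with 1 probe set each). Of these, 11 were higher and 8 lower (20.2% and 17.4% of all probe sets). With the arrays quantile normalised again, 16 were called in shunt, 7 higher and 9 lower, so the balance of directions there depended on the scaling. With right and left arrays of the same number and condition as a block, an alternative chosen after seeing the data, 19 were called in sham (13 higher) and 11 in shunt (8 higher). The groups did not overlap for 51 of the 76 members in sham, a larger share than the 50.4% of all probe sets. In shunt they did not overlap for 40 of the 76, against 48.9% of all probe sets. The sham and shunt comparisons share no arrays, but each shares arrays with the shunt effects above.

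The side differences tended to go the same way in both conditions. Of the calls, 14 were made in both, all in the same direction, 10 higher on the left and 4 lower. They were 58.3% of the sham calls and 73.7% of the shunt calls. Over the 76 genes the differences in sham and in shunt had a Pearson correlation of 0.90 and a Spearman correlation of 0.83, and 60 had the same sign. No difference between the conditions was called for any member. Its median standard error over the members was 0.095, so small differences between the conditions were not resolved. Through every alternative setting, each array left out in turn included, 12 of the sham calls held (Cox5a, Ndufa4l2, Cox4i2, Atp5f1d, Ndufa3, Ndufv3, Uqcrc1, Cox6a1 and Ndufb10 higher, Ndufb5, Ndufb1 and Cox7a2l lower) and 7 of the shunt calls (Cox5a, Cox4i2, Ndufa4l2, Atp5f1d and Cox6a1 higher, Ndufb5 and Cyc1 lower). The other side calls were each lost in at least 1 setting, and some in most. Leaving out any 1 of the 12 arrays lost the calls of Uqcr10 in sham and of Atp5po and Cox6b1 in shunt. The Cox8b call in shunt held in 1 of these 12 fits. Those of Uqcrfs1 in sham and of Uqcr10 and Ndufs1 in shunt held in 2. Without left shunt replicate 3, 15 members were called in shunt, 9 higher and 6 lower.

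**Figure D3:**
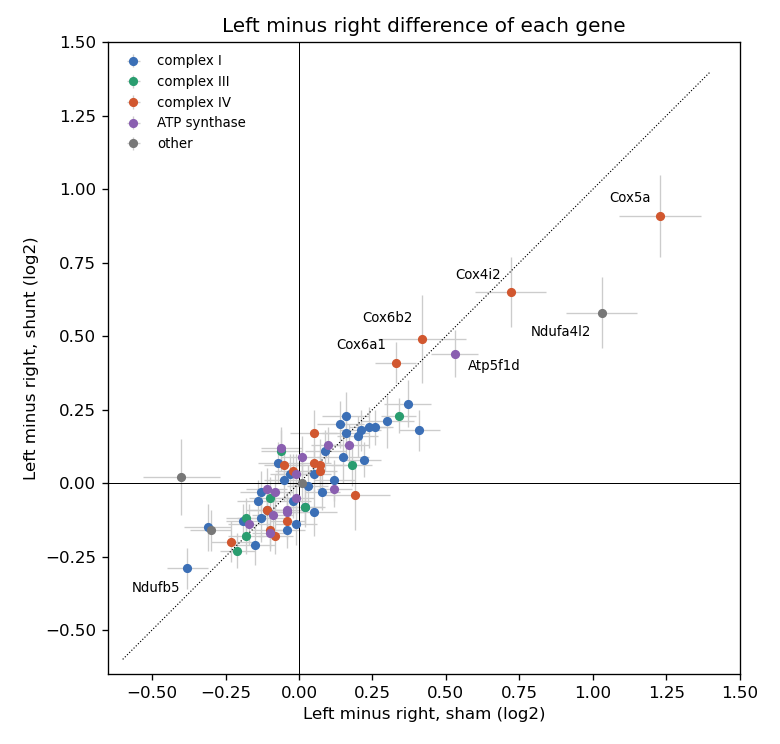
Left minus right difference (log2) of each of the 76 genes in sham (horizontal axis) and in shunt (vertical axis), coloured by complex; bars are standard errors of the limma fit and the dotted line marks equal differences. Cox5a, Ndufa4l2, Cox4i2 and Atp5f1d are farthest to the right and Ndufb5 is lowest, and 60 genes have the same sign in both.

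The largest side differences in sham belonged to dim probe sets. Cox4i2 read 5.12, 5.56 and 5.63 in right sham and 6.13, 6.03 and 6.30 in left sham. It read 5.43, 5.58 and 5.52 in right shunt and 6.15, 6.23 and 6.09 in left shunt. All 6 left arrays were above all 6 right arrays, by 0.72 ± 0.12 in sham (limma, adjusted p = 0.000532) and 0.65 ± 0.12 in shunt (limma, adjusted p = 0.00122). Its shunt effect was 0.07 in the right and 0.01 in the left atrium.

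Ndufa4l2, with the values above, was higher on the left by 1.03 ± 0.12 in sham, or 2.04-fold (limma, adjusted p = 4.61e-05), and by 0.58 ± 0.12 in shunt (limma, adjusted p = 0.00291). Of the 6 smooth muscle markers, 5 were also higher on the left in both conditions (20.1% of all probe sets in sham and 20.2% in shunt). Their list mean was 7.87 to 8.06 in right sham and 8.42 to 8.49 in left sham. In shunt it was 7.98 to 8.11 on the right and 8.45 to 8.56 on the left. Other lists differed by side too. Of 7 ventricular muscle markers, 4 were lower on the left in both conditions, and Irx5 was higher in shunt. Their list mean was 7.07 to 7.23 in right sham and 5.65 to 5.92 in left sham. Of 8 macrophage markers, 3 were lower on the left in sham and 5 in shunt. Of 8 fibroblast markers, 3 were higher and 1 lower in sham, and 2 higher and 2 lower in shunt. The part of these cell types in the side differences of Ndufa4l2 and Cox4i2 was not tested.

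Cox5a, the subunit Va of complex IV, showed the largest difference, and its probe sets disagreed. Its own probe set read 6.62, 6.43 and 6.60 in right sham and 7.68, 8.03 and 7.65 in left sham. The difference was 1.23 ± 0.14 (limma, adjusted p = 3.57e-05), and 0.91 ± 0.14 in shunt (limma, adjusted p = 0.000418). The probe set annotated to both Cox5a and LOC100361008 differed by 0.05 in sham (limma, adjusted p = 0.587) and by 0.05 in shunt (limma, adjusted p = 0.558). The side difference of Cox5a therefore rests on a single probe set.

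Among the bright members, complex IV isoforms differed on a smaller scale. Cox6a1, the isoform VIa of non-muscle tissues, read 11.01, 11.04 and 11.10 in right sham and 11.42, 11.36 and 11.37 in left sham. In shunt it read 11.19, 11.07 and 11.03 on the right and 11.46, 11.53 and 11.54 on the left. It was higher on the left by 0.33 ± 0.07 in sham (limma, adjusted p = 0.00217) and by 0.41 ± 0.07 in shunt (limma, adjusted p = 0.000566). Its muscle partner Cox6a2 did not pass the threshold, at -0.04 in sham and -0.13 in shunt (limma, adjusted p = 0.104).

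In the next pair it was the muscle isoform that was called, in shunt. Cox8b was lower on the left there, by -0.18 ± 0.06 (limma, adjusted p = 0.0446), with -0.08 in sham (limma, adjusted p = 0.355), while Cox8a differed by 0.17 in shunt (limma, adjusted p = 0.108) and 0.05 in sham. Taken within each array, the Cox6a2 minus Cox6a1 difference changed from right to left by -0.37 in sham and -0.54 in shunt, and the Cox8b minus Cox8a difference by -0.13 and -0.34. These values describe a ratio and say nothing of which member of a pair moved. Cox7a1 did not pass the threshold, at 0.19 in sham (limma, adjusted p = 0.248) and -0.04 in shunt.

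Other complex IV members were mixed. Cox7c, a small membrane-spanning subunit, was lower on the left in sham (-0.23, limma adjusted p = 0.0218) and in shunt (-0.20, limma adjusted p = 0.0367), and Cox6b1, which faces cytochrome c, was lower in shunt (-0.16, limma adjusted p = 0.0469). Cox6b2 was called higher in sham (0.42) and in shunt (0.49), although in sham its groups overlapped. Ndufa4, now counted as a complex IV subunit, differed by -0.05 and 0.06. Cox7a2l was lower on the left in sham (-0.30, limma adjusted p = 0.0038) and Cox6c-ps1 too (-0.40, limma adjusted p = 0.0249).

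In complex I, 11 of the 33 subunits were called in sham, 8 higher and 3 lower on the left (33.3%, close to the 36.1% of all probe sets), and 6 in shunt, 4 higher and 2 lower (18.2%, against 37.7%). The 6 core subunits were all above 0 in sham (0.08 to 0.24), and 3 were called: Ndufs1 (0.24), which holds iron-sulphur clusters of the NADH arm, Ndufs7 (0.21), which holds the last cluster before ubiquinone, and Ndufv1 (0.20), the NADH-binding subunit. In shunt 5 of the 6 were above 0 (-0.03 to 0.19) and 1 was called, Ndufs1. Of the 27 accessory subunits, 5 were higher and 3 lower, between -0.38 and 0.41. The core and accessory groups were formed after their values were seen.

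The accessory subunits higher on the left in sham were Ndufa3 (0.41), Ndufv3 (0.37), Ndufa5 (0.30), Ndufb10 (0.26) and Ndufb7 (0.22). Those lower were Ndufb5, Ndufb1 (-0.31) and Ndufb4 (-0.19), all of the membrane arm, which also holds Ndufb10 and Ndufb7. Ndufb5 read 12.92, 12.80 and 12.83 in right sham and 12.47, 12.46 and 12.49 in left sham. It was lower on the left by -0.38 ± 0.07 in sham (limma, adjusted p = 0.000658) and by -0.29 ± 0.07 in shunt (limma, adjusted p = 0.00412). In shunt the calls were Ndufv3 (0.27), Ndufc1 (0.23), Ndufs1 (0.19) and Ndufb10 (0.19) higher, and Ndufb5 and Ndufa12 (-0.21) lower.

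In complex III, 4 of 8 were called in sham and 3 in shunt (50% and 37.5%, against 36.1% and 37.7% of all probe sets). Uqcrc1, a core protein that faces the matrix, read 12.04, 12.01 and 12.09 in right sham and 12.41, 12.36 and 12.38 in left sham, a difference of 0.34 ± 0.06 (limma, adjusted p = 0.00133), and was higher by 0.23 in shunt. Uqcrfs1, the Rieske iron-sulphur protein, was higher in sham (0.18, limma adjusted p = 0.0496). Cyc1, the cytochrome c1 subunit, was lower on the left in sham (-0.21) and in shunt (-0.23), as was Uqcr10 (-0.18 in each). The called subunits of this complex thus did not share a direction.

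ATP synthase held few side calls in the main fit, 1 of 15 in sham (6.67%, against 36.1% of all probe sets) and 2 in shunt (13.3%, against 37.7%). With a variance trend further ATP synthase genes were called, among them Atp5f1b, Atp5mf and Atp5pf in both conditions. The groups did not overlap for 10 of the 15 in sham and 8 of the 15 in shunt, against 50.4% and 48.9% of all probe sets. Differences between the complexes were not tested. Atp5f1d, the delta subunit of the central stalk, read 11.35, 11.48 and 11.58 in right sham and 12.06, 11.94 and 12.02 in left sham. In shunt it read 11.57, 11.49 and 11.46 on the right and 11.93, 11.91 and 11.99 on the left. All left arrays were above all right arrays, by 0.53 ± 0.08 in sham, or 1.45-fold (limma, adjusted p = 0.000158), and 0.44 ± 0.08 in shunt (limma, adjusted p = 0.000805). The other 4 subunits of the F1 head and central stalk and the 10 of the membrane part and peripheral stalk lay between -0.17 and 0.17 in sham. Atp5po, of the peripheral stalk, was lower on the left in shunt (-0.17, limma adjusted p = 0.0498). Its dim second probe set differed there by 0.08 (limma, adjusted p = 0.567).

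The size of the differences went with the level of the probe set. The 40 members with a mean of at least 12 had right shunt differences of at most 0.16 and sham side differences of at most 0.38 in size, and 8 of them were called by side in sham. For the 29 members between 9 and 12 these were 0.19 and 0.53, with 11 called. The 7 members below 9 held the largest values, 0.74 and 1.23, both genes called for the shunt in the right atrium, and 5 side calls in sham. Bright probe sets near the top of the scale can understate a difference, and how far they did here was not tested.

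**Figure D4:**
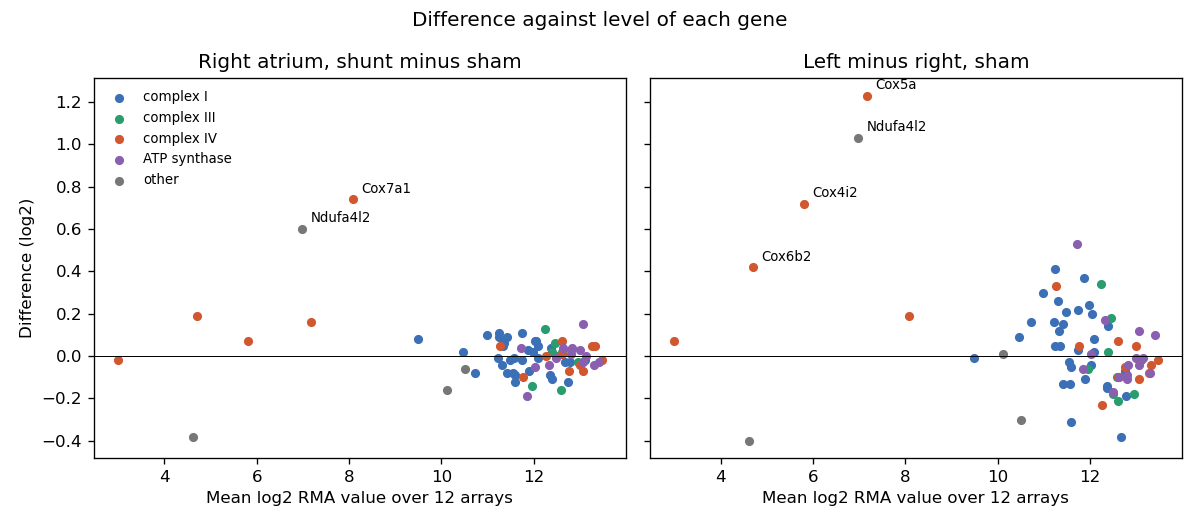
Right atrial shunt minus sham difference (left panel) and left minus right difference in sham (right panel), both in log2, against the mean log2 RMA value over 12 arrays for the 76 genes, coloured by complex. Cox7a1 and Ndufa4l2 stand out at 0.74 and 0.60 on the left, and genes with means of at least 12 stay within 0.16 there and within 0.38 on the right.

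Genes of the same pathway outside the name rule were counted by list. None of the 4 complex II subunits was called for the shunt in either atrium by limma, nor had any an unadjusted p under 0.05, and Sdha, its flavoprotein, was higher on the left in sham (0.29, limma adjusted p = 0.00787). Of 39 assembly factors, 3 rose in the right atrium (7.69%, against 1.9% of all probe sets called higher). With 1 probe set per gene, 403 of 14217 genes were called higher there. The 3 were the complex I factors Ndufaf1 (0.50, limma adjusted p = 0.0221) and Ndufaf4 (0.36, limma adjusted p = 0.0385), and the complex III factor Ttc19 (0.35, limma adjusted p = 0.0393). None of the 39 was called by limma in the left atrium, where 2 had an unadjusted p under 0.05 (13.6% of all probe sets). Of 24 regulators of mitochondrial biogenesis, none was called in the right atrium by limma, with 7 at an unadjusted p under 0.05 (19.7% of all probe sets). Perm1, a muscle coactivator of oxidative genes, fell by 0.52 in the left atrium (limma, adjusted p = 0.00762) and by 0.41 on average (limma, adjusted p = 0.00137). Its right atrial difference was -0.31 (limma, adjusted p = 0.0519), and the effects of the atria did not differ past the threshold (limma, adjusted p = 0.379).

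The same lists were counted by side. Of 13 electron carriers and ubiquinone genes measured, 9 were higher on the left in sham and 1 lower (76.9% called, against 36.1% of all probe sets), led by the ubiquinone genes Coq8a (0.92), Coq9 (0.72) and Coq2 (0.64), and in shunt 4 were higher and 2 lower (46.2%, against 37.7% of all probe sets). Of the assembly factors, 6 were higher and 8 lower in sham (35.9%, close to the 36.1% of all probe sets), with Cox20 (1.04) and Cox11 (0.83), both of complex IV assembly, highest. Of the regulators, 5 were higher and 7 lower in sham (50%), the lowest being Gabpa (-0.98), which encodes the ETS subunit of GABP, and in shunt 4 were higher and 12 lower (66.7%), among them Ppargc1a (-0.37). Of 16 inner membrane carriers and energy transfer genes, 5 were higher and none lower in sham (31.2%), led by the uncoupling protein homolog Ucp2 (1.59, limma adjusted p = 1.05e-06).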

How the data were processed

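RNA from 12 atrial tissue pools was hybridised to Affymetrix arrays with biotin-labelled cRNA. The deposited values are log2 intensities per probe set, made by the authors with RMA per the submitters' processing notes; the software version is not given in the sources used here. Probe sets were named from the platform annotation. Of 31099 probe sets, 57 controls were left out; of the rest, 20826 named 1 gene, 436 several and 9780 none.

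The groups came from the sample titles. limma 3.58.1 in R 4.3.3 was fitted to 4 group means on all 12 arrays (8 residual degrees of freedom), with 6 comparisons: shunt minus sham in each atrium, their average and difference, and left minus right in each condition. Adjustment was over all 31042 probe sets. The procedure was tested on simulated data. The members, the gene lists and the rule for named genes were chosen with earlier results of these data known. The genes named include every called member and the brightest member per complex. They also include the 3 largest rises and falls for the shunt in each atrium and for each side difference. Up to 4 called genes per list and the isoform genes were named, but Cox6c, Cox7b2 and Atp5mc3 were left out. Alternatives left out each array in turn and changed the scaling, variance model, filter, probe set choice, arrays fitted and replicate block. Right and left pools were treated as independent, since the labels tie none together.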

Additional observations from a re-analysis of the deposited data

How the results depend on the processing

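Leaving out 1 array at a time gave 1 to 2 members called in the right atrium, 0 in the left, 1 to 3 for the average, 0 for the difference of shunt effects, 14 to 23 for the side difference in sham (main 24; 14 without right sham replicate 2 and 15 without left sham replicate 1) and 8 to 15 for that in shunt (main 19; 12, 8 and 10 without right shunt replicates 1, 2 and 3, and 10 and 11 without left shunt replicates 1 and 2). A variance trend with robust fitting called 5 in the right atrium (adding Atp5me, Atp5pb and Uqcrq) and 1 in the left. By side it called 36 in sham and 37 in shunt. The median standard error of the members was 0.045 with it and 0.067 without. Fitting the compared groups alone called 9 by side in shunt. The Cox7a1 call in the right atrium and on average held in every alternative, including without left shunt replicate 3 (right 0.74, left 0.40). The average was not fitted with right and left arrays of the same number and condition as a block. Of the side calls, 12 of 24 in sham and 7 of 19 in shunt held in every alternative and none reversed. Across all groups, same-numbered arrays correlated at -0.10 to 0.15 in their deviations (3 of 18 over 0.1), which does not meet the rule for pairing. Right and left arrays of one number within a condition correlated at 0.08 to 0.15 (6 of 6 above 0), and those of different numbers at -0.09 to -0.01. Deviations within a group sum to 0, so these negative values follow from the positive ones and are no separate sign. Of the 12 arrays, 9 correlated best with an array of their own number. The positive values and this count are a hint from the data that such pools may be related. With the replicate number as a block the calls were 2, 0, 2, 0, 22 and 13 in the same order; with the number within each condition as a block, added after seeing the data, they were 0 for the difference of shunt effects, 19 by side in sham and 11 in shunt. Signal near the top of the scale and 3 pools a group limit what small differences can be resolved.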

Other observations

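Probe sets outside the name rule or secondary to it gave further values. The probe set shared by Cox7a2 and Cox7a2l2, the VIIa isoform of non-muscle tissues and a copy of it, was lower on the left in sham (-0.17, limma adjusted p = 0.0422) and differed by -0.07 for the shunt in the right atrium (limma, adjusted p = 0.576). The probe set shared by Atp5mc2 and Atp5mc2l1, which encode the membrane ring of ATP synthase, was higher on the left in sham (0.32, limma adjusted p = 0.00874) and in shunt (0.26, limma adjusted p = 0.0265). A second probe set of Ndufv3 was higher on the left in sham (0.65, limma adjusted p = 8.84e-05) and in shunt (0.32, limma adjusted p = 0.0102), the same direction as the brighter probe set of that gene. Chosen after its values were seen, Ucp2 was also higher on the left in shunt (1.38).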
